A study of Mus musculus with 10 samples.

Results

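Axon guidance ligands and receptors were taken as every gene of the expression table whose symbol names a vertebrate semaphorin, plexin, neuropilin, Slit, Robo, netrin, Unc5 receptor, ephrin or Eph receptor. The names alone gave 57 of 15078 genes. The naming rule used no measured value, but these families were chosen with earlier results of these data known. The 57 genes comprised 19 semaphorins, 9 plexins, 2 neuropilins, 2 Slits, 2 Robos, 4 netrins, 3 Unc5 receptors, 7 ephrins and 9 Eph receptors. Of these, 53 averaged 10 or more across the 10 libraries and were tested, while Ntn5, Plxnb3, Sema4g and Sema5b were below this level. Other genes that fit the same naming, such as Slit1, Robo3, Robo4, Unc5d, Sema3g, Efna3, Epha5 and Ephb1, were not among the 15078 genes. Each of the 15078 genes had at least 22 reads over all libraries.

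Axon guidance genes encode secreted or membrane-bound cues and the receptors that read them. Class 3 semaphorins are secreted and usually signal through a neuropilin that binds the ligand and a plexin that carries the signal, Slits bind Robos, netrins bind Unc5 receptors and the DCC family, and ephrins and Ephs signal between touching cells in both directions. In bone these families are known from vessel and nerve patterning and from signalling between osteoblasts and osteoclasts.

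RNA was sequenced from CD51+CD200+ cells, after removal of cells positive for CD45, Ter119 or CD31, in 3 groups of mouse libraries. Marrow mesenchymal stem cells of untreated wild-type mice at steady state made up the BM-MSC group (n = 3), and skeletal stem cells of the periosteum of such mice made up the P-SSC group (n = 3). For the graft BM-MSC group (n = 4), mesenchymal stem cells were sorted from marrow inside femurs 5 months after transplantation, with the genotype transgenic (POSTN-CRE) and tamoxifen induction, and were positive for the reporter Tomato. The comparison asks how graft marrow stroma that descends from cells with Postn activity relates to marrow stroma and periosteum of bones that were not transplanted. In the graft the Cre is inducible and follows the Postn promoter, so that any cell of the donor femur with active Postn during induction is labelled, whatever its type, and the femurs lay under the skin of the recipient's back. Graft and steady-state mice therefore differ in genotype, tamoxifen, surgery and site together, and these cannot be told apart. Graft cells had also spent 5 months in the recipient, so their age may differ from that of steady-state cells. Age cannot be told apart from the other differences either. The labels give no age for single libraries. BM-MSC 2+4 and P-SSC 2+5 each combined RNA of a pair of mice, replicates held RNA of distinct mice, and the steady-state libraries were reused from an earlier deposit.

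Reads per library numbered between 15415421 and 25223295. The size-factor-normalized count of a gene is called its level below, folds are ratios of group means of levels, and libraries are given in the order BM-MSC 1, 2+4 and 3, P-SSC 1, 2+5 and 4, and graft BM-MSC 1 to 4. The genes of the sort antigens CD51 and CD200 (Itgav and Cd200) summed to between 1781 and 3962 in all libraries. The marrow stroma list (8 genes, Cxcl12 and Lepr among them) summed to between 717723 and 855187 in graft BM-MSCs and to no more than 25528 in P-SSCs. The periosteum list (8 genes, Postn and Fn1 among them) summed to at least 439721 in P-SSCs and to at most 18262 in graft BM-MSCs. BM-MSCs summed to at least 870654 on the marrow list and to between 18345 and 25217 on the periosteum list. Not every gene followed the sum of its list. The marrow gene Pdgfra was highest in P-SSCs (14223, 6193 and 9474, against 2161 to 2865 in graft BM-MSCs). The periosteum gene Ctsk overlapped between P-SSCs (5001 to 8116) and graft BM-MSCs (5010 to 9680). Other cell types differed as well. The endothelial list (10 of 15 genes in the table) summed to between 3557 and 7172 in P-SSCs, 271 and 659 in BM-MSCs and 0 and 455 in graft BM-MSCs, where Cdh5, Tek, Tie1, Emcn, Plvap and Stab2 were listed at 0 in every library. Most of the P-SSC sums came from Tek (6869, 4820 and 3254), whereas Tie1, Emcn and Stab2 were at 0 in all P-SSC libraries and above 0 in at least 2 BM-MSC libraries each, so that the sum does not stand for all endothelial genes. The Schwann and glial list (10 of 11 genes) summed to between 21413 and 29168 in P-SSCs, 8875 and 11902 in BM-MSCs and 4830 and 12097 in graft BM-MSCs, most of it Pmp22 in every library, and in graft BM-MSCs Sox10 was listed at 0 in every library. S100b of this list went the other way, at 242 to 388 in P-SSCs, 1018 to 1953 in BM-MSCs and 551 to 1562 in graft BM-MSCs. The neuron list (5 of 9 genes) summed to between 238 and 546 in P-SSCs and to no more than 87.7 elsewhere. The pericyte and smooth muscle list (10 genes) reached at least 11969 in P-SSCs and at most 11064 elsewhere, with the smooth muscle genes Acta2 (14413, 22978 and 7454 in P-SSCs) and Myh11 highest in P-SSCs but the pericyte genes Rgs5 and Notch3 lower there than in BM-MSCs. The hematopoietic list (14 of 15 genes) lay between 72405 and 196158 in BM-MSCs, 5526 and 60574 in graft BM-MSCs and 658 and 3244 in P-SSCs. The part of these cells in the results on guidance genes was not tested, and in bulk RNA fewer cells of a type and less RNA per cell cannot be told apart.

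The libraries also split by GC content. Genes with over 65% GC were high in the 4 graft libraries and P-SSC 4 (1.52 to 2.80 on the log2 scale against genes with 50 to 60% GC) and low in the 3 BM-MSC libraries, P-SSC 1 and P-SSC 2+5 (-1.81 to -1.51). This split is called the library batch below, although no label or header names a batch and what it reflects is not known. Batch and group cannot be told apart between graft BM-MSCs and BM-MSCs. Among guidance genes with over 55% GC, P-SSC 4 was the highest of the 3 P-SSC libraries for 19 of 29, and among the others for 12 of 24. Graft libraries listed 17 to 27 of the 57 guidance genes at 0 (29.8 to 47.4%, beside 22.6 to 38.3% of all genes). Steady-state libraries listed 5 to 15 at 0 (8.77 to 26.3%, beside 11.5 to 19.0% of all genes). More zeros in graft libraries were thus found over all genes too. Zeros also fell on genes that were high elsewhere in the group (Sema3b in graft BM-MSC 2, Ephb3 in graft BM-MSC 3 and Plxna3 in BM-MSC 3).

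Between the steady-state groups, 15 guidance genes differed (limma, Benjamini-Hochberg adjusted p under 0.05). The secreted ligands Sema3c, Sema3e and Ntn1 and the receptors Epha1 and Ephb2 were higher in P-SSCs, which is 5 of 53 (9.43%) against 4.57% of all 13644 genes tested. Both neuropilins, 3 plexins (Plxna2, Plxnb1, Plxnd1), the membrane semaphorins Sema5a, Sema6d and Sema7a, and Unc5c and Efnb3 were lower in P-SSCs, which is 10 of 53 (18.9%) against 4.58% of all genes. The median difference over the 53 genes was 0.98 on the log2 scale against 0.00 for all genes.

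Graft BM-MSCs differed from P-SSCs in 22 guidance genes. Higher in graft BM-MSCs were 12 of 53 (22.6%, against 6.08% of all genes), namely Nrp1, Nrp2, Plxna2, Plxnb1, Plxnd1, Unc5b, Sema5a, Sema6d, Sema7a, Slit2, Efnb1 and Efna4. Lower were 10 of 53 (18.9%, against 12% of all genes), namely Sema3a, Sema3c, Sema3e, Ntn1, Ntn4, Epha1, Epha3, Ephb2, Efnb2 and Plxnb2. The median was -0.40, against -0.47 for all genes. Graft BM-MSCs differed from BM-MSCs in 3 guidance genes. By limma 0 were higher (against 2.61% of all genes), while 11 of 53 had an unadjusted p under 0.05 in either direction, and DESeq2 called 5 higher and edgeR 0. Sema3a, Unc5c and Plxnb2 were lower (5.66%, against 5.06% of all genes). Quantile normalization moved this split to 2 higher (Efna2 and Efnb1) and 1 lower, and the GC correction to 2 higher (again Efna2 and Efnb1) and 2 lower. Without BM-MSC 1, 2+4 or 3 a single gene passed, and without P-SSC 4 it was 5. The median there was -0.06, against -0.53. With the submitters' scaling the median gene was thus lower in graft BM-MSCs in both comparisons. The comparisons share libraries, so their values are given side by side below and are not independent of each other.

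**Figure D1:**
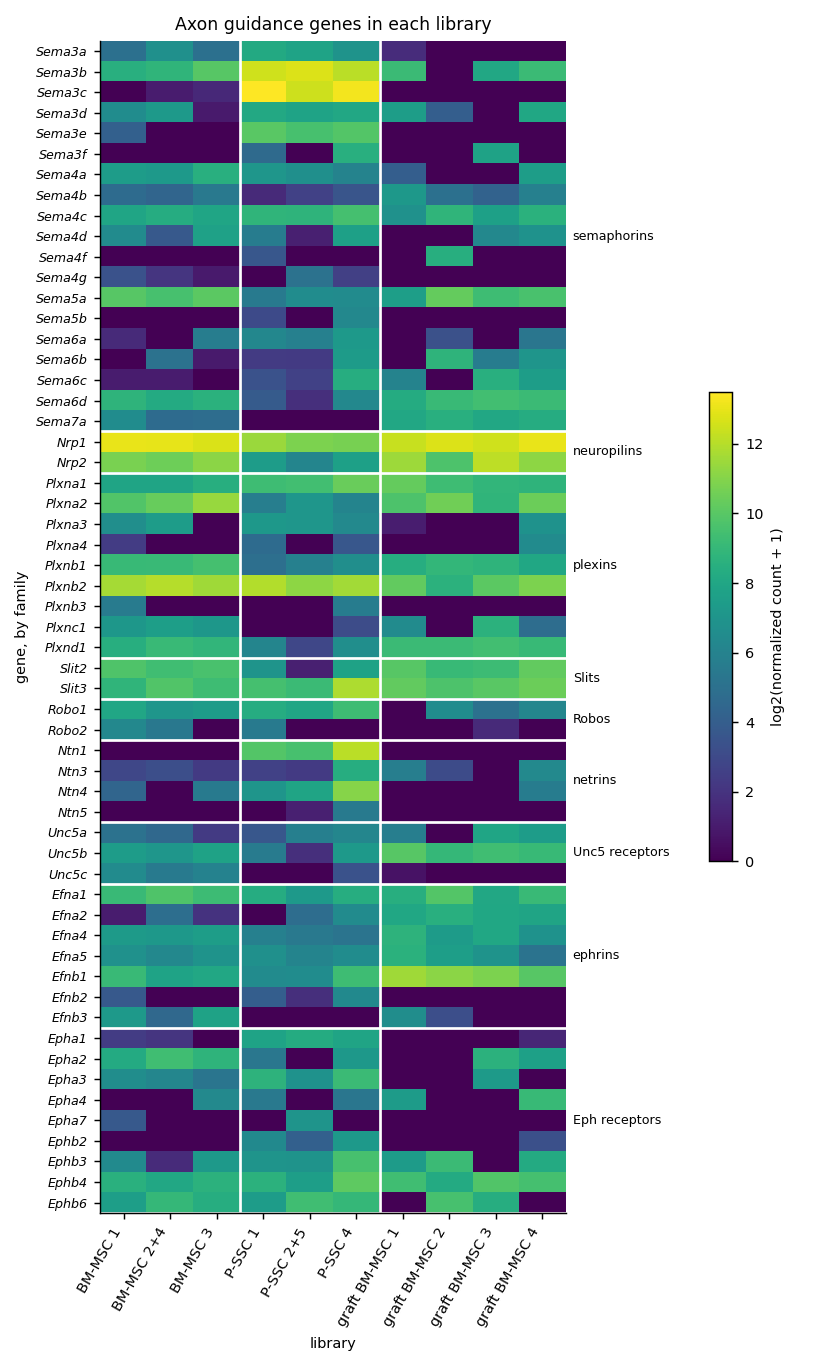
Level of each of the 57 guidance genes, as log2(normalized count + 1) in colour, in the 10 libraries (columns, grouped as BM-MSC, P-SSC and graft BM-MSC) and by family (blocks of genes). Sema3b and Sema3c are the brightest semaphorins in the P-SSC columns, Nrp1 is bright in every column, and Ntn1 is listed at 0 in all BM-MSC and graft libraries.

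Sema3c, a secreted ligand of neuropilin and plexin complexes known from vessel and heart outflow development, had the widest difference of all the guidance genes. Its level was 0, 1.055 and 1.97 in BM-MSCs, 11460, 5625 and 9781 in P-SSCs, and it was listed at 0 in all 4 graft libraries. The P-SSC libraries thus stood alone, with no overlap with either other group. The mean was 8955 ± 3004 (SD, n = 3) in P-SSCs, and the log2 difference of P-SSCs from BM-MSCs was 12.20 ± 1.09 (SE, limma adjusted p = 8.02e-05). The 3 BM-MSC libraries held 3 reads of Sema3c together, which gives a ratio of 8875 with a counting interval of 3037 to 43036. Against the floor of 3 reads per library, graft BM-MSCs held at least 3642-fold less Sema3c than P-SSCs (log2 difference -13.07 ± 1.02, SE, limma adjusted p = 2.57e-05).

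Sema3e, which binds plexin D1 without a neuropilin, was also a periosteal ligand. Its level was 16.7, 0 and 0 in BM-MSCs, 1043, 764 and 937 in P-SSCs, and 0 in every graft library. Again no P-SSC value overlapped with another group. P-SSCs were 164-fold above BM-MSCs (log2 difference 8.45 ± 1.30, SE, limma adjusted p = 0.00173), with 16 reads in BM-MSCs, all from BM-MSC 1. Graft BM-MSCs were at least 372-fold below P-SSCs (log2 difference -9.83 ± 1.22, SE, limma adjusted p = 0.000328).

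Sema3c (chr5:17574281-17730268, plus strand, GRCm38) and Sema3e (chr5:14025276-14256689, plus strand) share chromosome 5 with Sema3a (chr5:13125414-13602565) and Sema3d (chr5:12383385-12588948), a span of 5.35 Mb that held 4 other genes of the table. Of the 3 of these that were tested, 1 was higher in P-SSCs than in BM-MSCs and 1 was lower in graft BM-MSCs than in P-SSCs. The promoters of both ligands are shown with that of Sema7a, a ligand listed at 0 in all P-SSC libraries, as a window of 250 bases before to 50 after a RefSeq transcript start (GRCm38.p6, plus strand, 5′ to 3′). Capitals mark the GC box, GGGCGG or its complement CCGCCC, to which Sp1 family factors are known to bind.
Sema3c, chr5:17574566-17574865: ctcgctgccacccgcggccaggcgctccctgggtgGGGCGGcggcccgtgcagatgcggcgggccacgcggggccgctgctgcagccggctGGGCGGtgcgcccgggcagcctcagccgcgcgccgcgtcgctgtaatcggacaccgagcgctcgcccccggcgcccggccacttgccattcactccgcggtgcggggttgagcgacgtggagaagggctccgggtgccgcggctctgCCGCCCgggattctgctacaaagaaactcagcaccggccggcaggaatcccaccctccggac
Sema3e, chr5:14025026-14025325: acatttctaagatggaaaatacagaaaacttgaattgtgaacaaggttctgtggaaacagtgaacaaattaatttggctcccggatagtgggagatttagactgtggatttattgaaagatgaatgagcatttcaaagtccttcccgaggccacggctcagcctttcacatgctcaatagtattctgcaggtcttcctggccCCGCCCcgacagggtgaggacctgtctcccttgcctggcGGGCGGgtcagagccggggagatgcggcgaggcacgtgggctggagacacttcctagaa
Sema7a, chr9:57939862-57940161: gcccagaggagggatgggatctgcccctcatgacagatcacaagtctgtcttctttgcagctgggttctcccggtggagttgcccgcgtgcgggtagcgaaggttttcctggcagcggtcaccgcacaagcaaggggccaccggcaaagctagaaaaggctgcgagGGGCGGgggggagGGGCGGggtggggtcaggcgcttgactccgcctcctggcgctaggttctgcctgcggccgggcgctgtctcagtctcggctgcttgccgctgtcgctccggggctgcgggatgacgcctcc
The windows hold 3, 2 and 2 GC boxes, in sequence of 75.7%, 50.7% and 67.3% GC. A GC box, searched on both strands, was present in 45 of the 65 promoters (69.2%) of the 50 guidance genes matched by symbol, and in 35.7% of all 32851 RefSeq promoters of this length. TATAAA or its complement TTTATA was present in 2 of the 65 (3.08%) and in 13.6% of all promoters, and in none of the 3 windows shown. The median GC content was 64.7% in the 65 promoters and 52.7% in all promoters, and its part in these shares was not tested. A match describes letters and is not a site, and the GC box was present in the windows of ligands with opposite patterns alike.

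The other class 3 semaphorins varied more. Sema3b, a secreted ligand that acts through neuropilins, was at 368, 453 and 1013 in BM-MSCs, 5933, 7051 and 4407 in P-SSCs, and 586, 0, 272 and 585 in graft BM-MSCs. All P-SSC values lay above all others, with a listed 0 in graft BM-MSC 2. The difference of P-SSCs from BM-MSCs was not called by limma, edgeR or DESeq2 (adjusted p = 0.478, 0.253 and 0.0606). It passed only in the limma fit of both steady-state groups alone and without graft BM-MSC 2. The difference of graft BM-MSCs from P-SSCs just missed the limma threshold (adjusted p = 0.0541) and was called by DESeq2 (adjusted p = 0.00315), with a pseudocount of 5, a minimum mean of 100, median centring or quantile normalization, and without graft BM-MSC 1, 2 or 4. Per kb of exon, Sema3b (1213) and Sema3c (1254) were the highest guidance genes of P-SSCs, and their ranges over libraries (922 to 1476 and 788 to 1605) overlapped. Sema3a, a repulsive ligand that binds Nrp1 and is known to protect bone, was at 30.3, 108 and 30.6 in BM-MSCs, 287, 224 and 121 in P-SSCs, and 2.26, 0, 0 and 0 in graft BM-MSCs.
Graft BM-MSCs lay below all steady-state libraries for Sema3a, with 4 reads in all, by a log2 difference of -7.21 ± 1.11 from P-SSCs (SE, limma adjusted p = 0.00121) and of -5.14 ± 1.11 from BM-MSCs (SE, limma adjusted p = 0.0215). The second call was lost without BM-MSC 1, 2+4 or 3 (limma adjusted p up to 0.0926) and with library batch as a covariate (limma adjusted p = 0.639, the highest among the alternatives, whose lowest was 9.64e-05). Sema3d (0 to 281) and Sema3f (0 to 364) were not called by limma or edgeR, but DESeq2 called Sema3f between BM-MSCs and each other group (adjusted p = 7.78e-08 for graft BM-MSCs and 4.13e-08 for P-SSCs). Sema3f was listed at 0 in all BM-MSC libraries, at 23.9, 0 and 364 in P-SSCs, and at 0, 0, 215 and 0 in graft BM-MSCs. These DESeq2 calls thus rest on graft BM-MSC 3 and mostly on P-SSC 4.

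**Figure D2:**
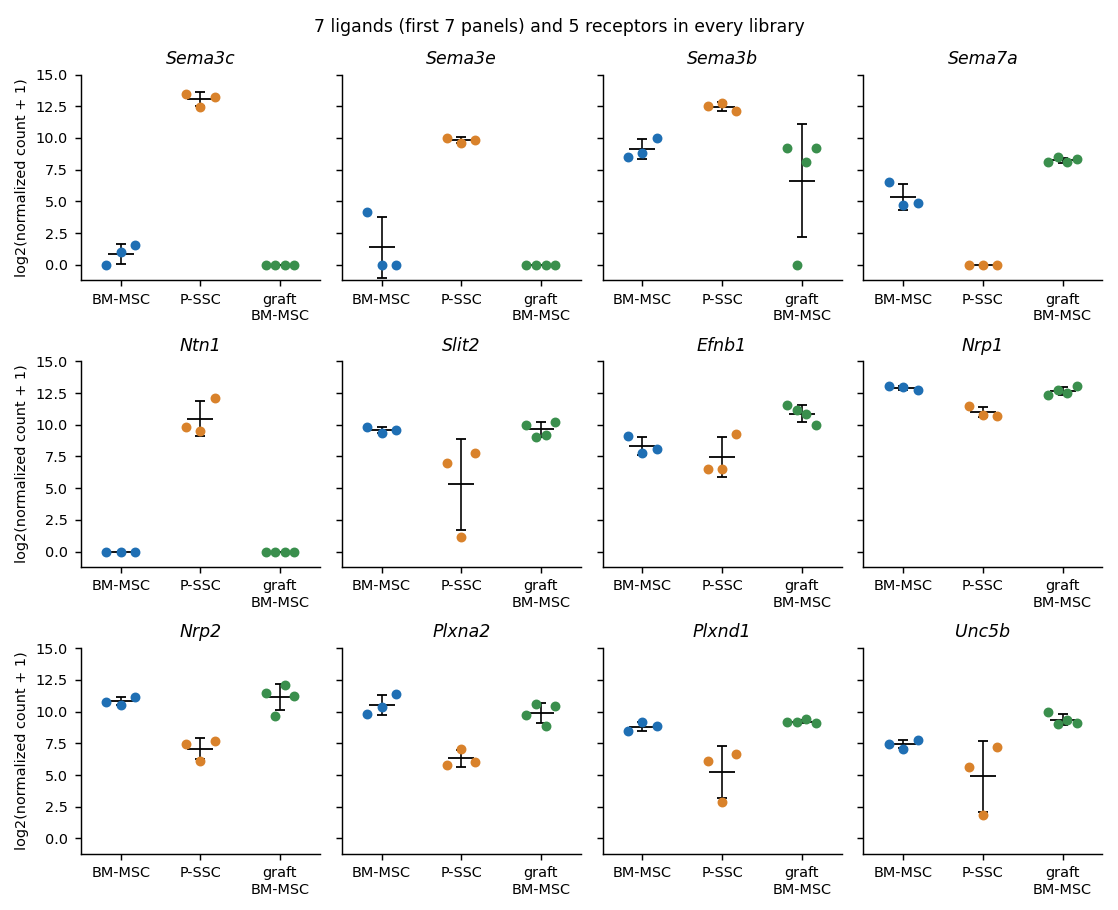
Levels of 7 ligands and 5 receptors as log2(normalized count + 1) in each library (points), with mean and SD (bars) per group. Sema3c, Sema3e and Ntn1 are above 0 in all P-SSC libraries and at 0 in all graft libraries, Sema7a shows the opposite, and the receptors Nrp1, Nrp2, Plxna2 and Plxnd1 are lowest in P-SSCs.

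The membrane-bound semaphorins Sema5a, Sema6d and Sema7a had their lowest levels in P-SSCs. Sema7a, which is anchored to the membrane by a lipid and is known to act through plexin C1 and integrins containing the beta 1 chain, was at 92.9, 25.3 and 27.6 in BM-MSCs, listed at 0 in all 3 P-SSC libraries, and at 271, 359, 269 and 325 in graft BM-MSCs. No group overlapped with another, the graft libraries being the highest. The difference of graft BM-MSCs from BM-MSCs was called by DESeq2 (adjusted p = 0.00818) but not by limma (0.114) or edgeR (0.174). It also passed in the limma fit of both groups alone. Graft BM-MSCs were at least 93.2-fold above P-SSCs (log2 difference 8.25 ± 1.02, SE, limma adjusted p = 0.000323), and BM-MSCs at least 14.8-fold above them (log2 difference of P-SSCs from BM-MSCs -5.37 ± 1.09, SE, limma adjusted p = 0.00937). Plxnc1, its plexin, was at 138, 186 and 141 in BM-MSCs, 0, 0 and 7.75 in P-SSCs and 89.8, 0, 400 and 27.6 in graft BM-MSCs. Plxnc1 was not called by limma (adjusted p = 0.0943 for the 2 steady-state groups and 0.177 between P-SSCs and graft BM-MSCs), whereas DESeq2 called both (adjusted p = 0.0354 and 0.0188), as did limma after quantile normalization or without graft BM-MSC 2. Both Sema7a and Plxnc1 are also known from blood cells, whose list was lowest in P-SSCs, and its part in these levels was not tested.

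Sema5a, a transmembrane semaphorin with thrombospondin repeats, was at 1005, 753 and 1099 in BM-MSCs, 44.7, 91.7 and 91.1 in P-SSCs, and 186, 1242, 618 and 771 in graft BM-MSCs. P-SSCs lay below all other libraries, by a log2 difference of -3.69 ± 0.68 from BM-MSCs (SE, limma adjusted p = 0.00532), and graft BM-MSCs were 9.29-fold above P-SSCs (log2 difference 2.98 ± 0.64, SE, limma adjusted p = 0.00831). Sema6d, a transmembrane ligand of plexin A1, was at 440, 307 and 387 in BM-MSCs, 13.5, 2.55 and 76.6 in P-SSCs, and 309, 554, 686 and 577 in graft BM-MSCs. P-SSCs were again separate, by a log2 difference of -4.56 ± 1.01 from BM-MSCs (SE, limma adjusted p = 0.0154) that was lost without BM-MSC 1, 2+4 or 3 (limma adjusted p up to 0.0675), while graft BM-MSCs were 17.2-fold above P-SSCs (log2 difference 5.01 ± 0.94, SE, limma adjusted p = 0.00412). The class 4 members and the remaining class 6 members were not called by limma or edgeR. DESeq2 called Sema6c between BM-MSCs and each other group (adjusted p = 0.00348 for graft BM-MSCs and 0.0103 for P-SSCs) and Sema4b between graft BM-MSCs and P-SSCs (adjusted p = 0.0157), and without graft BM-MSC 4 limma called Sema4a for graft BM-MSCs against both other groups. Sema6c was at 9.35, 5.10 and 332 in P-SSCs, the highest in P-SSC 4. Among the class 4 members and the remaining class 6 members, Sema4c, a ligand of plexin B2, had the highest levels (114 to 740).

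Among the netrins, Ntn1 was listed above 0 in P-SSCs only. Ntn1 (chr11:68209364-68400823, minus strand), the secreted cue netrin-1, was listed at 0 in all BM-MSC and graft libraries and was at 923, 743 and 4358 in P-SSCs. P-SSC 4, of the GC-rich batch, was the highest. P-SSCs were at least 651-fold above BM-MSCs (log2 difference 10.49 ± 1.08, SE, limma adjusted p = 0.000179) and at least 817-fold above graft BM-MSCs (log2 difference of graft BM-MSCs from P-SSCs -10.49 ± 1.01, SE, limma adjusted p = 8.07e-05). Within batches the difference was 9.70 for 2 P-SSC against 3 BM-MSC libraries and -12.09 for 4 graft libraries against P-SSC 4. With Ntn1 at 0 outside P-SSCs, this direction was fixed in advance. Ntn4, a laminin-related netrin of basement membranes, was at 19.8, 0 and 46.4 in BM-MSCs, 128, 232 and 2134 in P-SSCs, and 0, 0, 0 and 49.2 in graft BM-MSCs. P-SSC values lay above all others, and the log2 difference of graft BM-MSCs from P-SSCs was -7.23 ± 1.94 (SE, limma adjusted p = 0.0269), a call lost without graft BM-MSC 1, 2 or 3 or any P-SSC library (limma adjusted p up to 0.0804). Between P-SSCs and BM-MSCs Ntn4 was not called by limma, edgeR or DESeq2 (adjusted p = 0.174, 0.360 and 0.150), but was by limma after quantile normalization. Ntn3 (0 to 337) was called by neither limma, edgeR nor DESeq2, and its exons overlap those of Tbc1d24. The part of endothelial and Schwann cells in the netrin levels was not tested.

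The receptors of netrins showed another order. Unc5b, which is known to mediate repulsion by netrin-1 in vessels, was at 175, 135 and 220 in BM-MSCs, 47.8, 2.55 and 151 in P-SSCs, and 1023, 508, 652 and 552 in graft BM-MSCs. Every graft library lay above every steady-state library, and the log2 difference from P-SSCs was 4.47 ± 1.09 (SE, limma adjusted p = 0.0167). It was 2.11 within the GC-rich batch, against P-SSC 4 alone, and did not pass with batch as a covariate (limma adjusted p = 0.454, the highest among the alternatives, whose lowest was 0.00180). Between graft BM-MSCs and BM-MSCs Unc5b was not called by limma, edgeR or DESeq2 (adjusted p = 0.297, 0.295 and 0.138). That log2 difference was 1.92, and -1.61 with batch as a covariate. It passed only in the limma fit of both groups alone. Unc5c, another netrin receptor, was at 88.8, 44.3 and 63.1 in BM-MSCs, 0, 0 and 9.69 in P-SSCs, and 0.565, 0, 0 and 0 in graft BM-MSCs. BM-MSCs alone held Unc5c at over 10, and the graft libraries had 1 read in all, a ratio of 463 with a counting interval of 83.1 to 18288. The log2 difference was -5.84 ± 1.03 for graft BM-MSCs from BM-MSCs (SE, limma adjusted p = 0.00862) and -4.86 ± 1.10 for P-SSCs from BM-MSCs (SE, limma adjusted p = 0.0179), the latter lost without BM-MSC 1, P-SSC 1 or P-SSC 2+5 (limma adjusted p up to 0.0829). The marker lists of chondrocytes (34064 to 74152 in BM-MSCs, mostly Col2a1, and at most 3884 elsewhere) and osteoblasts (at least 965747 in BM-MSCs, mostly Col1a1 and Spp1, and at most 443362 elsewhere) were also highest in BM-MSCs. Not every gene followed its sum. The chondrocyte gene Sox9 was at 23.2 to 65.8 in BM-MSCs and 114 to 933 in graft BM-MSCs. The osteoblast gene Phex reached 833 in BM-MSCs and 3686 in graft BM-MSCs. The part of both cell types in the level of Unc5c was not tested. Unc5a (0 to 242) was not called by limma, edgeR or DESeq2.

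Slit2, a secreted repellent that binds Robos, was at 882, 659 and 781 in BM-MSCs, 127, 1.27 and 216 in P-SSCs, and 1025, 534, 599 and 1198 in graft BM-MSCs. P-SSCs were lowest without overlap. Their difference from BM-MSCs was not called by limma, edgeR or DESeq2 (adjusted p = 0.0905, 0.202 and 0.0544). Limma called it with batch as a covariate (adjusted p = 0.0440), a pseudocount of 5 or quantile normalization, and without P-SSC 2+5 or 4. Graft BM-MSCs were 7.31-fold above P-SSCs (log2 difference 4.32 ± 1.29, SE, limma adjusted p = 0.0417), a call lost without any 1 of the graft BM-MSC or BM-MSC libraries (limma adjusted p up to 0.0880). Slit3, known from bone vessels, was at 446, 921 and 623 in BM-MSCs, 723, 575 and 3632 in P-SSCs, and 1233, 837, 1061 and 1393 in graft BM-MSCs, with overlap and no call. Robo1, their receptor, was at 256, 134 and 168 in BM-MSCs, 326, 253 and 630 in P-SSCs, and 0, 94.4, 31.2 and 71.6 in graft BM-MSCs. Graft values lay below all steady-state values for Robo1, but limma called no comparison (adjusted p = 0.0761 for graft BM-MSCs against P-SSCs). DESeq2 called this one (adjusted p = 0.0498), as did limma with a pseudocount of 5, after quantile normalization or without graft BM-MSC 1 or 2. Robo2 was between 0 and 76.2.

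Both neuropilins were lower in P-SSCs than in the marrow groups. Nrp1 (chr8:128358604-128503363, plus strand), a receptor of class 3 semaphorins and of VEGF, was at 8491, 8082 and 6822 in BM-MSCs, 2835, 1785 and 1686 in P-SSCs, and 5145, 7037, 5884 and 8368 in graft BM-MSCs. P-SSCs were lowest, and BM-MSCs and graft BM-MSCs overlapped. Nrp1 was 3.71-fold lower in P-SSCs than in BM-MSCs (log2 difference -1.93 ± 0.26, SE, limma adjusted p = 0.000809) and 3.14-fold higher in graft BM-MSCs than in P-SSCs (log2 difference 1.67 ± 0.25, SE, limma adjusted p = 0.000943). Per kb of exon it was the highest guidance gene of BM-MSCs (797, range 697 to 868) and of graft BM-MSCs (675, range 526 to 855).
Nrp2 (chr1:62703285-62818695, plus strand), its paralog with a preference for other class 3 ligands, was at 1725, 1471 and 2265 in BM-MSCs, 173, 68.8 and 201 in P-SSCs, and 2897, 829, 4474 and 2363 in graft BM-MSCs. P-SSCs were again lowest without overlap, 12.3-fold lower than BM-MSCs (log2 difference -3.73 ± 0.61, SE, limma adjusted p = 0.00250), and graft BM-MSCs were 17.9-fold higher than P-SSCs (log2 difference 4.06 ± 0.57, SE, limma adjusted p = 0.000728). The difference of graft BM-MSCs from BM-MSCs passed the test for neither neuropilin.

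Plexins, the signalling receptors of semaphorins, went with the neuropilins in part. Plxna2, a partner of neuropilins, was at 911, 1302 and 2744 in BM-MSCs, 54.0, 135 and 65.9 in P-SSCs, and 834, 1527, 457 and 1395 in graft BM-MSCs. P-SSCs were separate from both, with log2 differences of -4.22 ± 0.61 from BM-MSCs (SE, limma adjusted p = 0.00115) and of 3.58 ± 0.57 for graft BM-MSCs from P-SSCs (SE, limma adjusted p = 0.00154). Plxnb1, the receptor of Sema4d, was at 536, 566 and 726 in BM-MSCs, 29.1, 57.3 and 101 in P-SSCs, and 336, 492, 430 and 257 in graft BM-MSCs. It was 9.76-fold lower in P-SSCs than in BM-MSCs (log2 difference -3.43 ± 0.59, SE, limma adjusted p = 0.00368) and 6.07-fold higher in graft BM-MSCs than in P-SSCs (log2 difference 2.71 ± 0.56, SE, limma adjusted p = 0.00673).
Plxnd1, the receptor of Sema3e, was at 347, 571 and 461 in BM-MSCs, 68.6, 6.37 and 101 in P-SSCs, and 587, 587, 675 and 546 in graft BM-MSCs. Ligand and receptor of this pair were thus high in different groups, Sema3e in P-SSCs and Plxnd1 outside them. The log2 difference of Plxnd1 was -3.59 ± 0.88 for P-SSCs from BM-MSCs (SE, limma adjusted p = 0.0275, lost without BM-MSC 1, 2+4 or 3, with limma adjusted p up to 0.1098) and 4.00 ± 0.82 for graft BM-MSCs from P-SSCs (SE, limma adjusted p = 0.00689). Plxnd1 is best known from endothelial cells, and their part in its level was not tested.

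Plxnb2 and Plxna1 did not follow this order. Plxnb2, a receptor of class 4 semaphorins, was at 3311, 4036 and 2996 in BM-MSCs, 3946, 2339 and 3153 in P-SSCs, and 1195, 407, 1086 and 1805 in graft BM-MSCs. Graft libraries lay below all others, 3.07-fold below BM-MSCs (log2 difference -1.79 ± 0.44, SE, limma adjusted p = 0.0366) and 2.80-fold below P-SSCs (log2 difference -1.64 ± 0.44, SE, limma adjusted p = 0.0276). Neither call held with a GC correction (limma adjusted p = 0.0684 and 0.0909) or with batch as a covariate (0.655 and 0.229, the highest among the alternatives, whose lowest were 0.00549 and 0.00722). The first was also lost without graft BM-MSC 1 or 3, any BM-MSC library or P-SSC 1 (limma adjusted p up to 0.143), and the second without P-SSC 1 or 4 (up to 0.120). Plxna1, a receptor of Sema6d and of neuropilin complexes, was at 232, 233 and 349 in BM-MSCs, 634, 670 and 1367 in P-SSCs, and 1280, 627, 460 and 432 in graft BM-MSCs. BM-MSCs were lowest without overlap. Plxna1 was not called by limma (adjusted p = 0.0808 for P-SSCs against BM-MSCs), but was by DESeq2 (adjusted p = 0.0224), in the limma fit of both steady-state groups alone and without graft BM-MSC 1. Plxna3 and Plxna4 (0 to 174 and 0 to 89.8) were not called by limma, edgeR or DESeq2, although limma called Plxna3 between graft BM-MSCs and P-SSCs without graft BM-MSC 4.

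**Figure D3:**
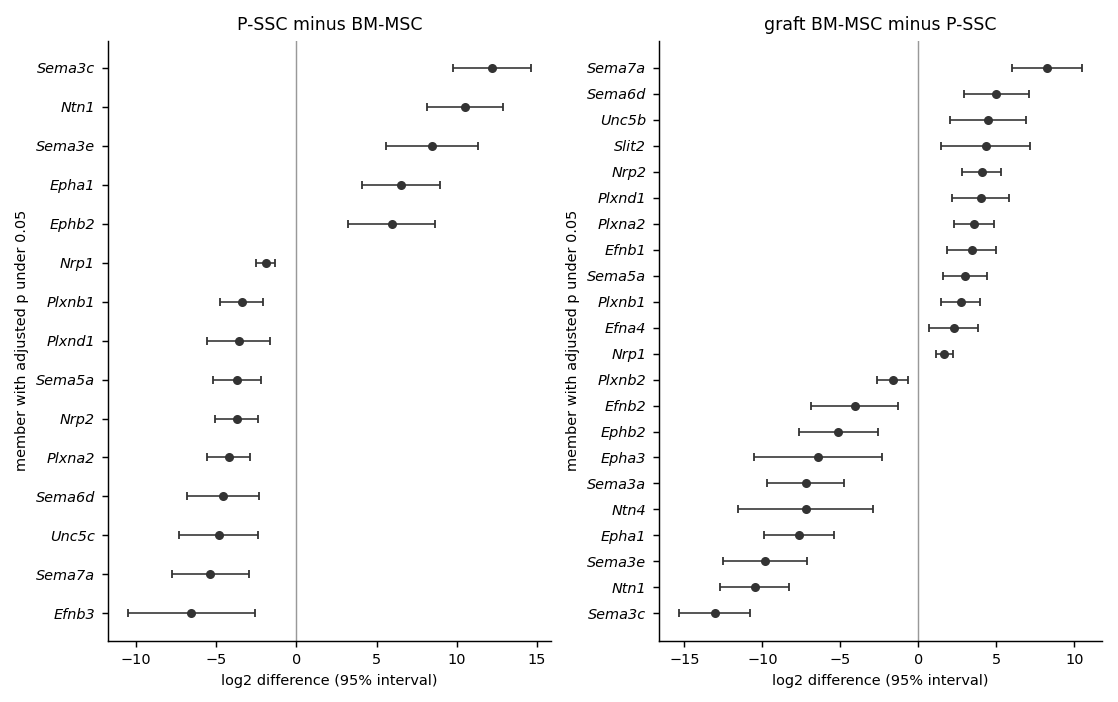
Log2 differences with 95% intervals (limma, log2(normalized count + 1)) of the guidance genes with an adjusted p under 0.05, for P-SSCs minus BM-MSCs (left, 15 genes) and graft BM-MSCs minus P-SSCs (right, 22 genes). Sema3c lies at one end of both panels (12.20 and -13.07), and Nrp1 has the narrowest interval in both.

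Of the 7 ephrins, 2 were higher and 1 was lower in graft BM-MSCs than in P-SSCs (against 6.08% and 12% of all genes), and 1 was lower in P-SSCs than in BM-MSCs (against 4.58%). Efnb1 (chrX:99136130-99148991, plus strand), the ephrin-B1 ligand whose loss is known to disturb skull sutures, was at 560, 221 and 269 in BM-MSCs, 91.4, 91.7 and 625 in P-SSCs, and 3048, 2257, 1801 and 1015 in graft BM-MSCs. All graft libraries lay above all others, 7.53-fold above P-SSCs (log2 difference 3.43 ± 0.71, SE, limma adjusted p = 0.00711), but within the GC-rich batch the difference from P-SSC 4 was 1.59, and with batch as a covariate it did not pass (limma adjusted p = 0.258, the highest among the alternatives, whose lowest was 0.000593). Against BM-MSCs, graft BM-MSCs missed the limma threshold for Efnb1 (adjusted p = 0.0563) and that of edgeR (0.102), while DESeq2 called it (0.00658). Efna4 was at 161, 146 and 180 in BM-MSCs, 57.1, 42.0 and 35.9 in P-SSCs, and 425, 170, 260 and 115 in graft BM-MSCs. P-SSCs were lowest, and the log2 difference of graft BM-MSCs from P-SSCs was 2.26 ± 0.70 (SE, limma adjusted p = 0.0489), a call lost without graft BM-MSC 1 or 3 or any 1 of the steady-state libraries (limma adjusted p up to 0.118). The difference of P-SSCs from BM-MSCs was called by DESeq2 (adjusted p = 0.0422) but not by limma (0.197) or edgeR (0.270). Exons of Efna4 overlap an antisense gene, which makes its level uncertain.
Efna2 was at 1.04, 28.5 and 2.96 in BM-MSCs, 0, 26.8 and 89.2 in P-SSCs, and 259, 358, 261 and 230 in graft BM-MSCs, above all others. It missed the limma threshold (adjusted p = 0.0695 against BM-MSCs and 0.0903 against P-SSCs), whereas the difference from BM-MSCs was called by DESeq2 (adjusted p = 0.0106), with the GC correction (limma adjusted p = 0.0424) and with a pseudocount of 5. Efna1 (148 to 951), which was among the 3 highest per kb in both marrow groups (368 in BM-MSCs and 292 in graft BM-MSCs), was called in no comparison by limma, edgeR or DESeq2.

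Efnb2 and Efnb3 were low. Efnb2, known as the partner of Ephb4 in arteries and in bone, was at 12.5, 0 and 0 in BM-MSCs, 15.6, 2.55 and 82.4 in P-SSCs and listed at 0 in all graft libraries, at least 13.6-fold below P-SSCs (log2 difference -4.09 ± 1.25, SE, limma adjusted p = 0.0459). This call was lost without any 1 graft library, BM-MSC 2+4 or 3, or P-SSC 1 or 4 (limma adjusted p up to 0.114), and by edgeR and DESeq2 (adjusted p = 0.102 and 0.109, among alternatives from 0.02005 to 0.211). The fold rests on a P-SSC mean led by P-SSC 4, while P-SSC 2+5 lay under its own floor of 3 reads (3.82). Efnb3 was at 159, 22.1 and 221 in BM-MSCs, listed at 0 in all P-SSC libraries and at 97.2, 8.43, 0 and 0 in graft BM-MSCs. BM-MSCs were at least 40.8-fold above P-SSCs (log2 difference of P-SSCs from BM-MSCs -6.55 ± 1.79, SE, limma adjusted p = 0.0458), a call lost without graft BM-MSC 2 or any 1 steady-state library (limma adjusted p up to 0.153).

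Eph receptors that differed were higher in P-SSCs. Epha1, a receptor of A-type ephrins, was at 4.18, 3.16 and 0 in BM-MSCs, 229, 311 and 236 in P-SSCs, and 0, 0, 0 and 1.73 in graft BM-MSCs. The P-SSC libraries were far apart from the rest, with log2 differences of 6.53 ± 1.09 from BM-MSCs (SE, limma adjusted p = 0.00290) and of -7.64 ± 1.02 for graft BM-MSCs from P-SSCs (SE, limma adjusted p = 0.000522). The 2 reads in graft libraries give a ratio of 599 with a counting interval of 166 to 4942. The exons of Epha1 overlap Zyx on the other strand, and without a known strand setting its reads cannot be told from those of Zyx.
Ephb2, a receptor of B-type ephrins, was listed at 0 in all BM-MSC libraries, at 83.1, 16.6 and 155 in P-SSCs, and at 0, 0, 0 and 8.63 in graft BM-MSCs. P-SSCs were at least 27.5-fold above BM-MSCs (log2 difference 5.94 ± 1.22, SE, limma adjusted p = 0.0101) and differed from graft BM-MSCs by -5.12 ± 1.14 (SE, limma adjusted p = 0.0106), but neither edgeR (adjusted p = 0.168 and 0.218) nor DESeq2 (0.0607 and 0.196) called them (the lowest values were 0.00333 and 0.00263 among the alternatives). Epha3 was at 96.1, 71.7 and 36.5 in BM-MSCs, 415, 115 and 593 in P-SSCs, and 0, 0, 163 and 0 in graft BM-MSCs. Graft BM-MSCs and P-SSCs overlapped for Epha3, and the call (log2 difference -6.42 ± 1.85, SE, limma adjusted p = 0.0360) was lost without graft BM-MSC 1, 2 or 4 or any 1 of the steady-state libraries (limma adjusted p up to 0.131).
The Eph receptors of highest level were not among those that differed. Ephb4, the Efnb2 receptor, was at 373, 274 and 398 in BM-MSCs, 399, 190 and 1118 in P-SSCs, and 642, 307, 898 and 728 in graft BM-MSCs. Ephb6, which lacks kinase activity, ranged from 0 to 756 and Ephb3 from 0 to 743. Epha2, Epha4 and Epha7 reached 653, 538 and 124, with at least 1 library at 0 each.

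**Figure D4:**
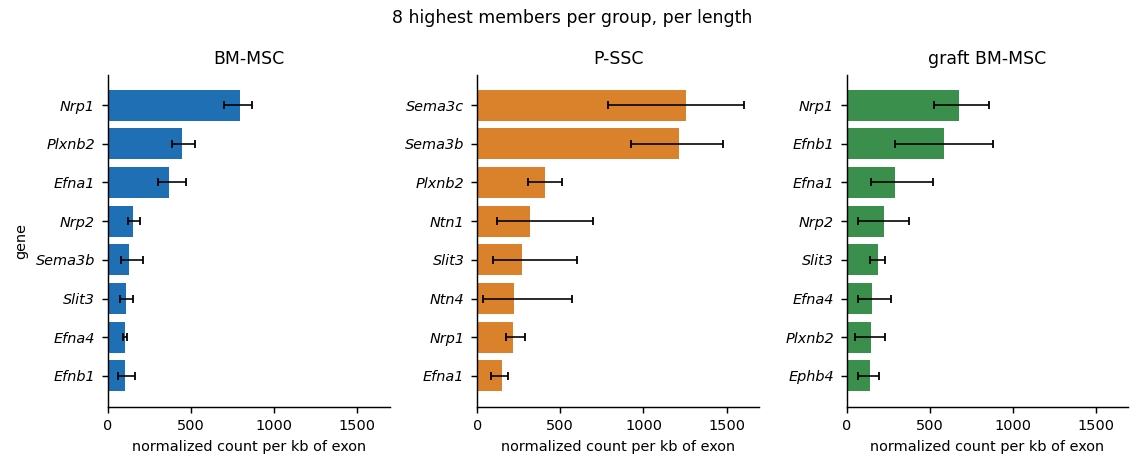
The 8 guidance genes with the highest level per kb of exon in each group (bars, mean) with the lowest and highest library (lines). Nrp1 leads BM-MSCs (797) and graft BM-MSCs (675), and Sema3c (1254) and Sema3b (1213) lead P-SSCs, where Nrp1 was at 215.

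The order of levels per kb of exon therefore began with a receptor in the marrow groups and with secreted ligands in P-SSCs. In BM-MSCs, Nrp1 (697 to 868) did not overlap with the next gene, Plxnb2 (388 to 523), while Plxnb2 and Efna1 (302 to 470) overlapped. In graft BM-MSCs, Nrp1 (526 to 855) overlapped with Efnb1 (294 to 883). In P-SSCs, Sema3b did not overlap with the next gene, Plxnb2 (303 to 511), which overlapped with Ntn1 (118 to 694).

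Other genes of these pathways were counted in the same fit. Of 28 co-receptors and other ligands, 21 were tested, of which graft BM-MSCs had 3 higher and 5 lower than P-SSCs, and 1 higher and 1 lower than BM-MSCs, and P-SSCs had 2 higher and 2 lower than BM-MSCs. The shares of all genes called higher and lower were 6.08% and 12%, 2.61% and 5.06%, and 4.57% and 4.58% in the same order. The medians of the list were -0.80, 0.20 and 0.87 on the log2 scale, against -0.47, -0.53 and 0.00 for all genes. Flrt3, a membrane ligand of Unc5 receptors, was at 98.2, 102 and 90.7 in BM-MSCs, 663, 169 and 252 in P-SSCs, and 0 in every graft library, the lowest group in both comparisons (log2 difference -8.26 ± 1.03 from P-SSCs, SE, limma adjusted p = 0.000338, and -6.61 ± 1.03 from BM-MSCs, SE, limma adjusted p = 0.00512). Flrt2, its paralog, was higher in P-SSCs than in BM-MSCs (log2 difference 4.00 ± 0.81, SE, limma adjusted p = 0.00927). Islr2, a membrane protein of growing axons, was listed at 0 outside P-SSCs and reached 1042 there, in P-SSC 4.
Chl1, a cell adhesion partner of Nrp1, was at 745, 707 and 583 in BM-MSCs, 22.9, 90.4 and 16.5 in P-SSCs, and 887, 208, 238 and 1096 in graft BM-MSCs, and like Nrp1 it was lower in P-SSCs (log2 difference -4.33 ± 0.85 from BM-MSCs, SE, limma adjusted p = 0.00807). Itga1, an integrin chain, was lower in P-SSCs as well (-2.71 ± 0.67, SE, limma adjusted p = 0.0283). Gpc1, a heparan sulfate carrier that binds Slits, was higher in graft BM-MSCs than in P-SSCs (3.20 ± 0.71, SE, limma adjusted p = 0.0101), where it was at 192 and 308 but at 2356 in P-SSC 4, the library of the GC-rich batch, and Boc, a Hedgehog co-receptor, was lower (-1.64 ± 0.42, SE, limma adjusted p = 0.0209). Dag1, which binds Slits in the matrix, was higher in graft BM-MSCs than in BM-MSCs (2.14 ± 0.52, SE, limma adjusted p = 0.0350), and at 7172 in P-SSC 4 against 1364 and 1225 in the other P-SSC libraries. The remaining pair of lower genes, Draxin and Ntng1, had a mean under 100 and was named after its values were seen.

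Of 56 genes of signal transduction downstream of guidance receptors, 54 were tested. In graft BM-MSCs, 2 were higher and 13 lower than in P-SSCs, and 2 were higher and 4 lower than in BM-MSCs, while in P-SSCs 2 were higher and 2 lower than in BM-MSCs. Of all genes, 6.08% were higher and 12% lower in the first comparison, 2.61% and 5.06% in the second, and 4.57% and 4.58% in the last. The medians of the list were -0.77, -0.59 and 0.73, against -0.47, -0.53 and 0.00 for all genes. Rgs3, which links ephrin-B reverse signals to G proteins, was at 2775, 3468 and 3058 in BM-MSCs, 291, 143 and 260 in P-SSCs, and 3108, 3072, 2349 and 2467 in graft BM-MSCs. Rgs3 was low in P-SSCs by a log2 difference of -3.80 ± 0.32 from BM-MSCs (SE, limma adjusted p = 5.28e-05), and graft BM-MSCs were higher than P-SSCs by 3.62 ± 0.30 (SE, limma adjusted p = 3.47e-05).
Among the lower genes in graft BM-MSCs than in P-SSCs were Rnd1, a plexin-binding GTPase (-8.03 ± 1.34, SE, limma adjusted p = 0.00209), Trio, an exchange factor in netrin signalling (-7.31 ± 1.95, SE, limma adjusted p = 0.0262), and Limk1, a kinase of cofilin (-5.92 ± 1.75, SE, limma adjusted p = 0.0398). Rac1, a GTPase that plexins bind, was at 264, 101 and 138 in BM-MSCs, 210, 273 and 5696 in P-SSCs, and 6599, 4983, 4661 and 6190 in graft BM-MSCs, so that its levels followed the library batch, P-SSC 4 included, and its call against BM-MSCs (log2 difference 5.16 ± 0.95, SE, limma adjusted p = 0.0110) cannot be told apart from that batch.

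**Figure D5:**
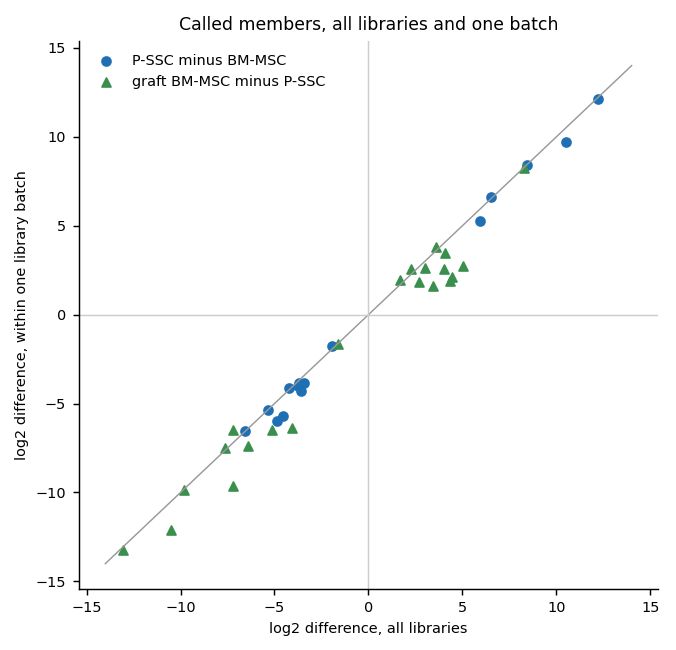
Log2 differences of the called guidance genes with all libraries (horizontal axis) and within one library batch (vertical axis), for P-SSCs minus BM-MSCs (circles, 2 against 3 libraries) and graft BM-MSCs minus P-SSCs (triangles, 4 libraries against P-SSC 4). The diagonal marks equal values. All points keep their sign, which was fixed in advance for genes whose groups did not overlap.

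Within one library batch, all 15 guidance genes that differed between P-SSCs and BM-MSCs kept their direction with 2 against 3 libraries, and so did all 22 that differed between graft BM-MSCs and P-SSCs with 4 libraries against P-SSC 4, which is too few for a test. These genes were called on the same libraries, and apart from Epha3 in the second comparison their groups did not overlap. Without overlap the direction within a batch was fixed in advance, so that it says nothing about the batch. The values within a batch were smaller for several genes that were higher in graft BM-MSCs, such as Slit2 (1.87 against 4.32), Sema6d (2.72 against 5.01) and Plxnd1 (2.55 against 4.00). With batch as a covariate, 11 of the 22 calls held, those of Sema3a, Sema3c, Sema3e, Sema7a, Ntn1, Nrp1, Nrp2, Plxna2, Epha1, Ephb2 and Efnb2. On the recovered reads, edgeR kept 14 of these 22 calls and 8 of the 15 between P-SSCs and BM-MSCs, the latter being Sema3c, Sema5a, Sema7a, Ntn1, Nrp1, Nrp2, Plxna2 and Plxnb1.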

How the data were processed

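RNA was sequenced from sorted cells of 10 libraries, 3 BM-MSC, 3 P-SSC and 4 graft BM-MSC. The deposited table holds signal values, which are the authors' read counts per gene divided by a DESeq2 size factor of the library. The authors mapped reads to GRCm38 with STAR, whereas the submitters' processing notes name GRCm39, STAR 2.5, featureCounts of Subread 1.4.6 and DESeq2 1.26.0. The filter is not given in the sources used here, nor is the strand setting (the kit could be directional or not), so overlapping and antisense genes are uncertain. All 10 columns matched a library by name. The values were whole multiples of the value of 1 read, within 0.02 of a read, for 100% of entries, and these reads gave the totals. A floor of 3 reads per library was the smallest amount used for bounds. Intervals and floors cover counting error only.

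Values were analysed as log2(value + 1), which understates changes of low genes. Genes with a mean of 10 or more (13644) were fitted with limma 3.58.1 in R 4.3.3, 1 mean per group, 7 residual degrees of freedom, trended empirical Bayes, two-sided, with Benjamini-Hochberg adjustment over all of them and a threshold of 0.05. The fit was tested on simulated data for sign and false calls. Differences are first group minus second group. Coordinates, exonic lengths and GC content came from GENCODE M21 (GRCm38) by Ensembl ID (15052 of 15078 matched), and promoters from RefSeq. The guidance genes, gene lists and alternatives were chosen with earlier results of these data known. Genes named with values are those with a call in at least 1 comparison, the 3 of each family with the highest mean, and their ligand or receptor partners, and for the pathway lists up to 4 called genes per direction and comparison with a mean of at least 100. Libraries within a group differed by more than read-counting noise (lowest chi-square per degree of freedom 72.2). P-values measure the spread between these libraries.

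The fit was repeated with other pseudocounts (0.1 and 5), without the filter or with a minimum mean of 100, after median centring or quantile normalization, with a loess GC correction (span 0.3), library batch (a split by GC content that no label names) as a covariate, in 2 groups alone, without each library in turn, with a replicate block, and by edgeR 4.0.16 (quasi-likelihood test, TMM) and DESeq2 1.42.0 on the recovered reads.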

Additional observations from a re-analysis of the deposited data

Results flagged for a closer look

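In 5 of the 28 guidance genes whose graft BM-MSC values could be examined by Dixon's test for a group of 4 at its 95% critical value, 1 graft library stood apart from the other 3. For Epha3, Ephb2, Ntn4 and Sema3a the other 3 were all listed at 0, so that the flag was fixed in advance. The usual rate of about 1 in 20 such groups does not hold for values tied at 0. Each of the 5 had 3 graft libraries at or near 0. Efnb3 was at 97.2 in graft BM-MSC 1, Epha3 at 163 in graft BM-MSC 3, Ephb2 at 8.63 and Ntn4 at 49.2 in graft BM-MSC 4, and Sema3a at 2.26 in graft BM-MSC 1.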

How the results depend on the processing

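Of the 40 calls (22 for graft BM-MSCs against P-SSCs, 3 for graft BM-MSCs against BM-MSCs and 15 for P-SSCs against BM-MSCs, limma adjusted p under 0.05), none changed direction in 870 refits under alternatives, 706 refits kept the call and 164 lost it. All refits reused the libraries that gave the calls. Apart from Epha3 in graft BM-MSCs against P-SSCs, the groups did not overlap. Leaving out a library or changing the pseudocount could then not reverse a direction, which was fixed in advance. Counts for graft BM-MSCs against P-SSCs moved to 11 with library batch as a covariate and 14 by edgeR. For graft BM-MSCs against BM-MSCs they moved to 5 with a pseudocount of 5, 1 with a mean of at least 100, 1 with library batch, 6 with both groups alone, 9 by DESeq2 and 0 by edgeR (10 at an unadjusted p under 0.05). For P-SSCs against BM-MSCs edgeR called 8. The replicate block, by the numbers in the sample titles, called 3, 0 and 0 in the same order of comparisons (24, 6 and 18 at an unadjusted p under 0.05 by limma). No label ties equal numbers to one animal, and deviations from group means correlated between -0.0191 and 0.0295 for equal numbers, so the samples were not treated as paired. Leaving out 1 library gave 17 to 22, 1 to 5 and 11 to 16 calls, the second with 1 call without BM-MSC 1, 2+4 or 3 and 5 without P-SSC 4. The cause of these moves was not tested. In graft BM-MSCs, genes near 0 limit what depth can show.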

Other observations

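Guidance genes outside the comparisons had low levels. Ntn5 was at 0 apart from 1.27 in P-SSC 2+5 and 46.5 in P-SSC 4, and Sema5b apart from 7.27 in P-SSC 1 and 77.5 in P-SSC 4. Plxnb3 was at 48.0 in BM-MSC 1 and 49.4 in P-SSC 4 and listed at 0 elsewhere. Sema4g did not exceed 33.1. Of the tested genes with no limma call and no values above, Sema4a ranged from 0 to 361, Sema4b from 2.08 to 147, Sema4d from 0 to 206, Sema6a from 0 to 155, Sema6b from 0 to 440, Sema6c from 0 to 359 and Efna5 from 34.5 to 384. Sema4f was listed at 0 in 8 libraries and was at 350 in graft BM-MSC 2 and 11.4 in P-SSC 1.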
